A study of Mus musculus with 24 samples.

Results

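The Dlx genes are the 6 mouse distal-less homeobox genes, Dlx1 to Dlx6, which code for transcription factors. They were found in the count table by gene identifier, 6 of 54752 genes, and 4 of them (Dlx1, Dlx2, Dlx5 and Dlx6) passed the filter on low counts that 16463 genes passed. The family was chosen by the measured values of Dlx1, which was higher in both vessels of Prdm6-deficient embryos. The Dlx1 values of those comparisons are therefore given as a description with no test, and the tests bear on Dlx2, Dlx5 and Dlx6, and on all 4 genes where the vessels were compared.

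Dlx genes sit in the genome as linked pairs that face each other and share regulatory DNA between them. In the pharyngeal arches, the embryonic tissue from which neural crest cells enter the great vessels, endothelin signaling acts upstream of Dlx5 and Dlx6, and Hand2 lies downstream of these, while Dlx1 and Dlx2 are active along the whole arch. In the forebrain the same genes drive the formation of inhibitory interneurons, and Dlx3 and Dlx5 act in osteoblasts.

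RNA-Seq was performed on the ductus arteriosus (DA), the fetal vessel that joins the pulmonary artery to the aorta, and on the ascending aorta of embryos at E18.5, on a C57BL/6 background. Prdm6-deficient embryos were Wnt1Cre;PRDM6f/f, in which Cre recombinase driven by Wnt1 promoter sequence deletes the floxed part of Prdm6 in neural crest cells and their descendants only, while other cells of the vessel keep the gene. Control embryos were PRDM6wt/f or PRDM6wt/wt without Cre, except for the Wnt1Cre;PRDM6wt/wt embryo that gave control DA replicate 2 and control aorta replicate 3. The libraries analysed were 7 control DA, 5 Prdm6-deficient DA, 6 control aorta and 5 Prdm6-deficient aorta, and Prdm6-deficient DA replicates 1 and 2 were each a pool of 2 embryos. By the labels, DA samples held less total RNA than aorta samples.

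Total counts per library ranged from 15163974 to 22610547, so that 3 counts, taken as the detection floor, stood for 0.135 to 0.201 CPM, the count scaled to a common library size. This floor covers counting error only. Prdm6 itself was at 84.9 to 127.5 CPM in control DA and 58.6 to 78.5 CPM in Prdm6-deficient DA, and at 95.6 to 135.5 CPM against 61.9 to 81.2 CPM in the aorta. It was thus lower in every Prdm6-deficient library of a vessel than in any control library, but far from 0, in a gene count that adds deleted and kept exons. All 8 smooth muscle markers were measured, and their summed level was at least 8653 CPM in every library. The animal numbers in the labels fall into 2 runs. In these bulk samples, more or fewer cells of a type and more or less RNA per cell cannot be told apart.

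Dlx1 (ENSMUSG00000041911.3) lies at chr2:71528113-71533981 on the plus strand of mm10, and Dlx2 (ENSMUSG00000023391.8) at chr2:71543408-71546754 on the minus strand, with 9426 bases between them. Dlx5 (ENSMUSG00000029755.10) lies at chr6:6877805-6882085 on the minus strand and Dlx6 (ENSMUSG00000029754.13) at chr6:6863334-6868568 on the plus strand, with 9236 bases between them. Dlx3 (ENSMUSG00000001510.8, chr11:95120119-95125296, plus strand) and Dlx4 (ENSMUSG00000020871.8, chr11:95140447-95146263, minus strand) are separated by 15150 bases.

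The members share a homeobox, so reads could in principle be divided between them. To show how far their sequences differ there, the 60 coding bases for the recognition helix, the part of the homeodomain that contacts DNA, are printed for each gene. They were read from GENCODE M21 transcripts on the coding strand, 5′ to 3′. Capitals mark the 37 of 60 bases that are the same in all 6 genes.

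Dlx1: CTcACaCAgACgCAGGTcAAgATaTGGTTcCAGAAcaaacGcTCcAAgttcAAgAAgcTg

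Dlx2: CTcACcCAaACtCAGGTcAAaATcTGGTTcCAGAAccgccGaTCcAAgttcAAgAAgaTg

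Dlx3: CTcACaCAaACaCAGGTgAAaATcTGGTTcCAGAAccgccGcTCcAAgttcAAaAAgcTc

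Dlx4: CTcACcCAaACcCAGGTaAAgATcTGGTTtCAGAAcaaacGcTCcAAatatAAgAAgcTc

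Dlx5: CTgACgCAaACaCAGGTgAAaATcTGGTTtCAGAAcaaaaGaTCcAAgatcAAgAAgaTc

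Dlx6: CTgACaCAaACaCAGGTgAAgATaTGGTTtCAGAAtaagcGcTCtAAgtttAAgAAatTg

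In this window any 2 members were identical at 73.3% to 88.3% of bases. Over whole transcripts, the longest stretch that any 2 members shared exactly was 11 to 23 bases, and it was 15 bases between Dlx1 and Dlx2 and 18 bases between Dlx5 and Dlx6. By the methods of the study, the paired reads were longer than these stretches.

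Dlx1 was low in control vessels. In control DA it ranged from 0.0532 to 2.84 CPM with a median of 0.418 CPM, and only 4 of 7 libraries held more than 3 counts. In Prdm6-deficient DA it was at 8.91, 6.64, 15.6, 9.37 and 8.54 CPM in replicates 1, 2, 5, 6 and 7. The groups did not overlap, as was so for 5.66% of all genes tested.

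The aorta had the same order. Dlx1 ranged from 0.911 to 4.01 CPM in control aorta, with a median of 1.87 CPM, and was at 15.4, 7.56, 27.3, 13.4 and 12.2 CPM in Prdm6-deficient aorta replicates 1 to 5. The log2 difference was 3.59 (SE 0.60) in the DA and 2.87 (SE 0.60) in the aorta. Within the first run of animal numbers the DA value was 3.42 and within the second run 3.40, and the aorta value within the second run was 2.53, the first run holding 1 control aorta library. These values chose the family and are not tested.

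Dlx2, the linked partner of Dlx1, which acts with it in arch and forebrain development, was higher on average in both deficient vessels, but its libraries were more spread. In control DA it ranged from 0 to 7.24 CPM with a median of 0.869 CPM. In Prdm6-deficient DA replicates 1, 2, 5, 6 and 7 it was at 6.05, 0.852, 12.4, 6.15 and 6.63 CPM. Prdm6-deficient DA replicate 2, a pool, lay among the controls, control DA replicate 5 lay above 4 of 5 deficient libraries, and the groups overlapped.

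In the aorta Dlx2 ranged from 0.674 to 2.03 CPM in control libraries, with a median of 1.07 CPM, and was at 6.73, 5.50, 10.3, 4.89 and 7.76 CPM in the 5 Prdm6-deficient libraries. There the groups did not overlap, as was so for 6.95% of all genes tested in the aorta and for 5.66% in the DA.

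By the edgeR quasi-likelihood test, the log2 difference of Dlx2 was 1.92 (SE 0.68, adjusted p = 0.0647) in the DA and 2.58 (SE 0.73, adjusted p = 0.0335) in the aorta. Neither met the rule used for a call, an adjusted p below 0.01 with a log2 difference beyond 0.5. Without control DA replicate 5, the DA difference was 3.04 (edgeR adjusted p = 9.92e-04) and was called, and the aorta difference was called as well (edgeR adjusted p = 0.00699), in a fit where all libraries share 1 estimate of the spread. Within the first run of animal numbers the DA difference was 5.10 and within the second run 0.71, with edgeR adjusted p = 0.0198 and 0.712. The control DA libraries of the first run were replicates 2 and 3, with 9 and 0 counts of Dlx2. Control DA replicate 5 and Prdm6-deficient DA replicate 2 belonged to the second run. The difference between runs was not tested. The aorta difference within the second run was 2.48 (edgeR adjusted p = 0.106).

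**Figure D1:**
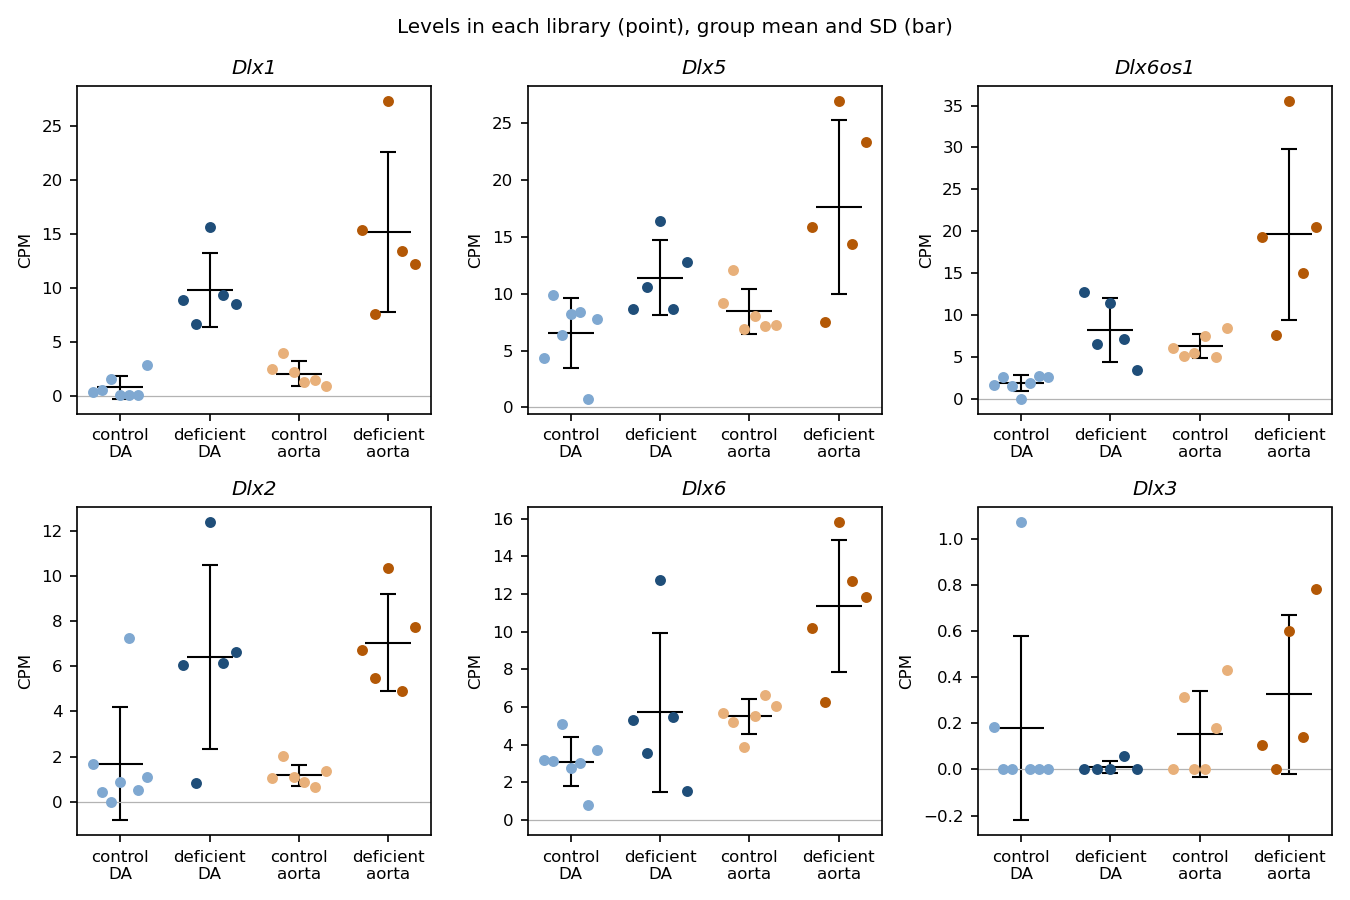
Each point is 1 library, in CPM scaled by the TMM method, in panels for Dlx1, Dlx5, Dlx6os1, Dlx2, Dlx6 and Dlx3, by vessel and genotype. Bars give the group mean and SD. Dlx1, whose rise chose the family, shows no overlap between genotypes in either vessel and Dlx2 none in the aorta. Of all genes tested, 5.66% show none in the DA and 6.95% none in the aorta. Dlx5 and Dlx6 overlap in both vessels, and Dlx3 stays at or below 1.07 CPM.

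Dlx5 and Dlx6, the pair that endothelin signaling controls in the lower part of the first arch, were present in control vessels already. Dlx5 ranged from 0.780 to 9.86 CPM in control DA, with a median of 7.76 CPM. It was at 8.66, 10.6, 16.4, 8.62 and 12.8 CPM in Prdm6-deficient DA. The values of replicates 2, 5 and 7 lay above the highest control, and the groups overlapped.

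In control aorta Dlx5 ranged from 6.88 to 12.1 CPM with a median of 7.67 CPM, and it was at 15.9, 7.56, 27.0, 14.4 and 23.4 CPM in Prdm6-deficient aorta. All but replicate 2 lay above the highest control. The log2 difference was 0.81 (SE 0.36, edgeR adjusted p = 0.156) in the DA and 1.06 (SE 0.37, edgeR adjusted p = 0.109) in the aorta, and neither was called.

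Dlx6 ranged from 0.780 to 5.12 CPM in control DA, with a median of 3.13 CPM, and was at 5.30, 3.58, 12.7, 5.46 and 1.57 CPM in Prdm6-deficient DA. In control aorta it ranged from 3.90 to 6.65 CPM with a median of 5.62 CPM, and it was at 10.2, 6.28, 15.8, 12.7 and 11.9 CPM in Prdm6-deficient aorta. In the aorta 4 of 5 deficient libraries and in the DA 3 of 5 lay above the highest control. The DA groups differed by 0.88 on the log2 scale (SE 0.38, edgeR adjusted p = 0.142) and the aorta groups by 1.04 (SE 0.39, edgeR adjusted p = 0.151), and neither was called.

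The DA difference of Dlx6 was 0.93 within the first run of animal numbers and -0.073 within the second, which held 2 deficient DA libraries, 1 of them a pool, and the difference between runs was not tested. The Dlx5 difference in the DA was 0.47 in the first run and 0.99 in the second, and within the second run the aorta differences were 0.83 for Dlx5 and 0.69 for Dlx6. None of these within-run values was called.

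Counted together, 0 of the 3 tested members other than Dlx1 were called higher in the DA by edgeR, against 2.61% of all genes tested, and 0 of 3 were called higher in the aorta, against 1.63%. All 3 had an unadjusted p below 0.05 in each vessel. DESeq2, run as an alternative, called 0 of 3 in the DA and 1 of 3 in the aorta, which was Dlx2 (DESeq2 adjusted p = 0.00222). With the aorta libraries fitted alone, edgeR called 2 of 3 there, Dlx2 (edgeR adjusted p = 2.73e-05) and Dlx6 (edgeR adjusted p = 0.00409).

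**Figure D2:**
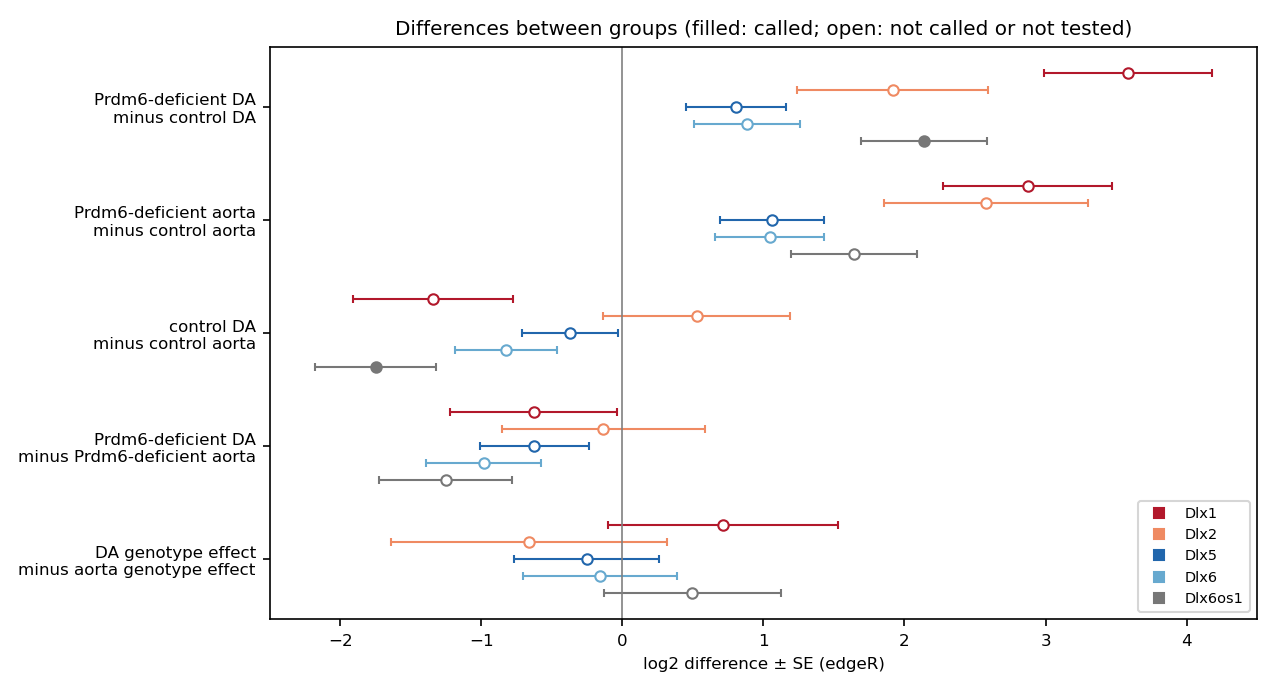
Log2 differences with their SE from edgeR, on the x axis, for the 4 tested members and Dlx6os1 in 5 comparisons, on the y axis. Filled points were called at an adjusted p below 0.01, and open points were not called or, for Dlx1 in the genotype comparisons, not tested. Every tested member lies to the right of 0 in both genotype comparisons, and only Dlx6os1 has filled points.

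Dlx3, which acts in skin, placenta and bone, and Dlx4 did not pass the filter on low counts. Dlx3 was above 3 counts in 2 of 7 control DA, 0 of 5 Prdm6-deficient DA, 3 of 6 control aorta and 2 of 5 Prdm6-deficient aorta libraries, and never above 16 counts. Dlx4 was at 0 in every library but control aorta replicate 2, which held 3 counts, the detection floor itself. No fold is given for either gene, and a difference between groups was not detectable at this depth.

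RNA from the other strand of the pairs was measured too. Dlx6os1 (ENSMUSG00000090063.6), also known as Evf2, is a long noncoding RNA that runs against Dlx6 at chr6:6820189-6871592 on the minus strand and is known to regulate Dlx5 and Dlx6 in the forebrain. It shares no annotated exonic base with either gene. It is not a member of the family proper.

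Dlx6os1 ranged from 0 to 2.73 CPM in control DA, with a median of 1.92 CPM, and was at 12.8, 6.47, 11.4, 7.13 and 3.39 CPM in Prdm6-deficient DA. These groups did not overlap, as was so for 5.66% of all genes tested in the DA. In control aorta it ranged from 4.99 to 8.49 CPM with a median of 5.78 CPM, and it was at 19.3, 7.65, 35.6, 14.98 and 20.5 CPM in Prdm6-deficient aorta, where replicate 2 fell within the control range. The log2 difference was 2.14 (SE 0.44, edgeR adjusted p = 0.0014) in the DA, where it was called, and 1.64 (SE 0.45, edgeR adjusted p = 0.0279) in the aorta, where it was not. Of all genes tested, 2.61% were called higher in the DA and 1.63% in the aorta.

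The call in the DA was lost when the DA libraries were fitted alone (edgeR adjusted p = 0.0366), within the first run (0.0243) and the second run of animal numbers (0.236), and without the pooled libraries (0.0143), with log2 differences of 1.47 to 2.31.

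Dlx1as (ENSMUSG00000084946.2, chr2:71516454-71537891, minus strand) overlaps Dlx1 and shares 335 exonic bases with it, 6.21% of the exonic bases of Dlx1. The counting is not stated to use strand, so reads from these bases cannot be assigned to one strand. In each of 23 libraries the estimated counts of Dlx1 and Dlx1as added up to a whole number within 0.01, although that of Dlx1 alone was fractional in 12. The share of Dlx1as in this sum was 0% to 33.3%. Dlx1as was at 1 count or less in every control DA library, and at 0, 0.795, 0.733, 1.15 and 0 CPM in Prdm6-deficient DA. In control aorta it ranged from 0 to 0.505 CPM. It was at 0.477, 0.504, 1.25, 1.21 and 0.927 CPM in Prdm6-deficient aorta, so that the aorta groups overlapped. As its reads may be those of Dlx1, its values are uncertain and are given with no test between genotypes. Of the other antisense transcripts, Dlx4os was at 0 in every library and Dlx6os2 was never above 6 counts.

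Levels can be compared between genes only per length of exon. In CPM per kb of exonic bases, Dlx5 was the highest member in every one of the 23 libraries. The 6 members summed to a median of 5.52 CPM per kb in control DA and 10.02 in Prdm6-deficient DA, and to 6.55 in control aorta and 16.6 in Prdm6-deficient aorta. Dlx1 made up a median of 1.93% of that sum in control DA and 15.9% in Prdm6-deficient DA, and 5.31% against 15.6% in the aorta. The share of Dlx5 was 53.4% against 39.0% in the DA and 55.4% against 42.4% in the aorta. These shares include Dlx1 and are a description.

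**Figure D3:**
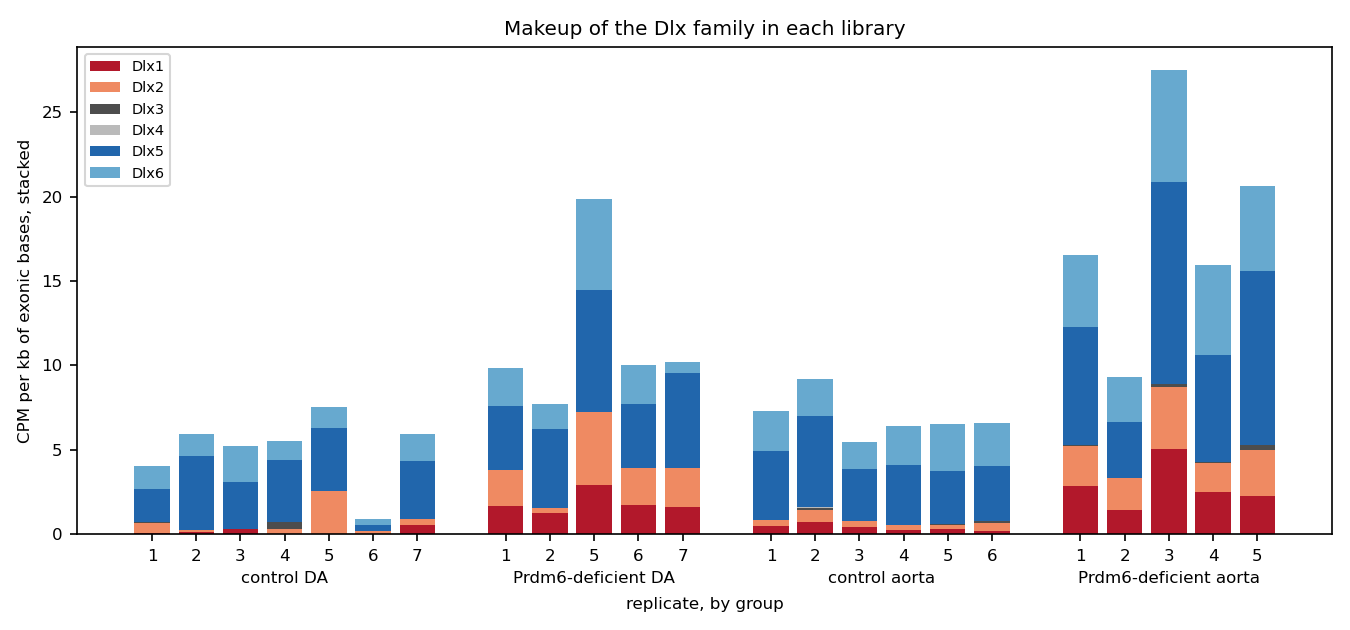
Stacked bars give each library's level of the 6 Dlx genes in CPM per kb of exonic bases, with replicates on the x axis by group. Dlx5 is the largest part of every bar, Dlx1 and Dlx2 are thin in control bars except for Dlx2 in control DA replicate 5, and the tallest bars of both deficient groups, Prdm6-deficient DA replicate 5 and Prdm6-deficient aorta replicate 3, came from the same embryo.

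The highest values of the 4 tested members came from the same embryo in both deficient groups. It gave Prdm6-deficient DA replicate 5 and Prdm6-deficient aorta replicate 3, and these held the highest value of Dlx1, Dlx2, Dlx5 and Dlx6 in their groups. Dlx6 in its DA was at 12.7 CPM, against 5.46 CPM in the next library. Dlx5 in its aorta was at 27.0 CPM, against 23.4 CPM in the next library. Dlx6os1 in its DA ranked 2 of 5. Dixon's criterion, given below, flagged no value of this embryo. Without this embryo, the DA differences were 3.36 for Dlx1, 1.53 for Dlx2, 0.64 for Dlx5 and 0.35 for Dlx6, and the aorta differences were 2.55, 2.40, 0.86 and 0.90 in that order.

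The vessels were compared next, a contrast that the choice of the family did not use. In control embryos Dlx1 was at 0.801 ± 1.04 CPM (SD, n = 7) in the DA and 2.07 ± 1.13 CPM (SD, n = 6) in the aorta, a log2 difference of -1.34 (SE 0.57, edgeR adjusted p = 0.149). Dlx6 was at 3.10 ± 1.29 CPM in the DA and 5.51 ± 0.929 CPM in the aorta, a log2 difference of -0.83 (edgeR adjusted p = 0.168). Dlx5 differed by -0.37 (edgeR adjusted p = 0.629) and Dlx2 by 0.53 (edgeR adjusted p = 0.752). These fits did not pair the 2 vessels of an embryo. Under 33 alternatives, among them a fit with the animal as a block, Dlx6 differed by -1.11 to -0.66. Its edgeR or DESeq2 adjusted p was 0.0664 to 0.270 there.

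None of the 4 members was called between control vessels in either direction. Of 16463 genes tested, 882 were called there, 521 higher in the DA and 361 (2.19%) lower. Of the 4 members, 2, Dlx1 and Dlx6, had an unadjusted p below 0.05. DESeq2 called 0 of 4 as well. Without control DA replicate 7, the library with the most Dlx1 among control DA, the Dlx1 difference was -2.14 and was called (edgeR adjusted p = 0.0086). Dlx6os1 was called lower in control DA than in control aorta, by a log2 difference of -1.75 (SE 0.43, edgeR adjusted p = 0.00608). All 6 control embryos with an aorta library gave both vessels, and the call was lost with the animal as a block (edgeR adjusted p = 0.109), with the replicate block (0.0247) and with control libraries alone (0.0361).

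In 6 control embryos both vessels were sequenced. Dlx6 and Dlx6os1 were lower in the DA than in the aorta of the same embryo in 6 of 6, Dlx1 in 5 of 6, and Dlx2 and Dlx5 in 2 of 6 each. Both vessels of 4 deficient embryos were sequenced, but the DA of 2 of them were pooled in Prdm6-deficient DA replicate 2, and their aortas gave Prdm6-deficient aorta replicates 1 and 2. In the 2 embryos whose DA was not pooled, the DA was the lower vessel in both for Dlx1, Dlx5, Dlx6 and Dlx6os1, and in 1 for Dlx2.

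**Figure D4:**
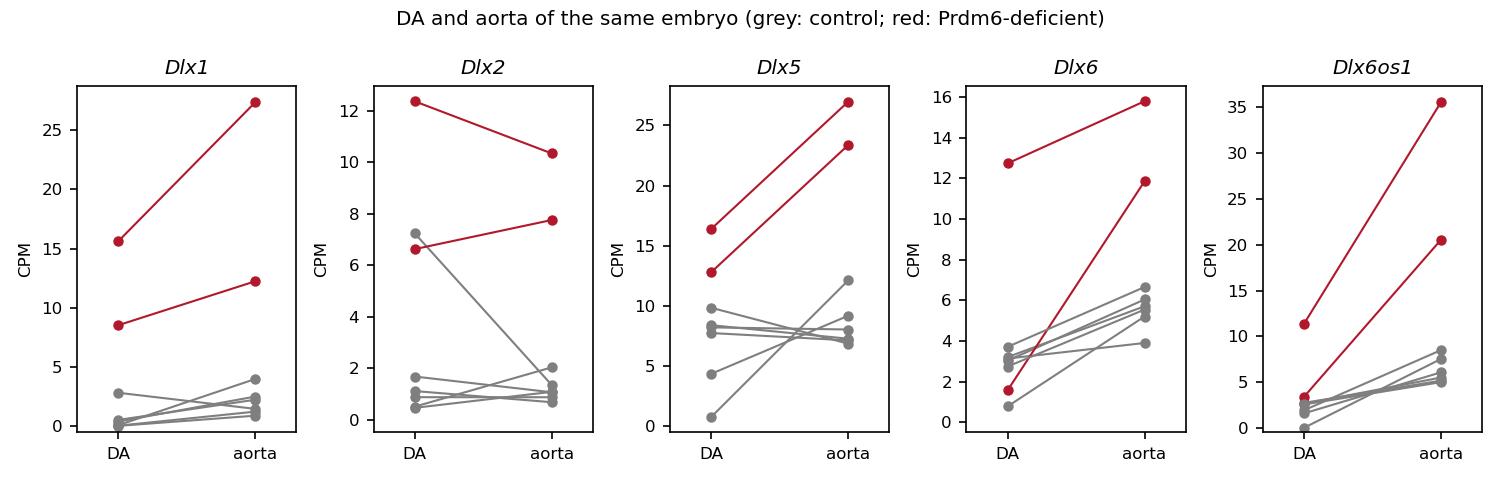
Lines join the DA and the aorta of 1 embryo, with CPM on the y axis, for the 4 tested members and Dlx6os1. Grey lines are the 6 control embryos and red lines the 2 Prdm6-deficient embryos whose DA was not pooled. The lines for Dlx6 and Dlx6os1 all rise toward the aorta, and those for Dlx2 go either way.

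Between the deficient vessels, the log2 difference (DA minus aorta) was -0.63 for Dlx1 (edgeR adjusted p = 0.828), -0.13 for Dlx2 (edgeR adjusted p = 0.983), -0.62 for Dlx5 (edgeR adjusted p = 0.646) and -0.98 for Dlx6 (edgeR adjusted p = 0.372). None of the 4 was called by edgeR or DESeq2, 1 of 4, Dlx6, had an unadjusted p below 0.05, and 0.267% of all genes tested were called in either direction.

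Whether the genotype effect differed between the vessels was tested as an interaction. The DA effect minus the aorta effect was -0.66 for Dlx2 (SE 0.98, edgeR adjusted p = 0.840), -0.25 for Dlx5 (SE 0.51, edgeR adjusted p = 0.894) and -0.16 for Dlx6 (SE 0.55, edgeR adjusted p = 0.944). For Dlx1 it was 0.71 (SE 0.81), given without a test. None of the 3 tested members was called, none had an unadjusted p below 0.05, and DESeq2 called none, while 2.58% of all genes were called in this comparison.

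The genes within 500 kb of each pair were described next. Over all genes tested, edgeR called 2.61% higher and 2.82% lower in the DA, and 1.63% and 0.826% in the aorta. Around Dlx1 and Dlx2, 10 of 22 other annotated genes were tested, and 0 were called by edgeR or DESeq2 in either genotype comparison, 1 (Cybrd1) having an unadjusted p below 0.05 in the DA and 0 in the aorta, with DA differences of -0.95 to 0.47 and a median of 0.09. The nearest tested neighbours were Metap1d, a mitochondrial methionine aminopeptidase 3 kb away, at 11.4 ± 3.26 and 12.5 ± 3.12 CPM in control and Prdm6-deficient DA, and Itga6, the integrin alpha 6 chain, 199 kb away on the other side, at 19.6 ± 13.7 and 27.1 ± 8.62 CPM. Their DA differences were 0.12 (edgeR adjusted p = 0.778) and 0.47 (edgeR adjusted p = 0.460), and their aorta differences 0.09 and 0.15.

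Around Dlx5 and Dlx6 the only 2 genes tested of 17 were Sem1, a proteasome subunit, with differences of 0.24 in the DA and 0.15 in the aorta, and Sdhaf3, an assembly factor of succinate dehydrogenase, with 0.40 and 0.15. Neither was called by edgeR or DESeq2, and 1 of them, Sem1, had an unadjusted p below 0.05, in the DA. Around Dlx3 and Dlx4, 17 of 38 were tested and 2 were called in the DA, both higher, where 2.61% of all genes tested were. Xylt2, a xylosyltransferase of proteoglycan synthesis, rose in both vessels, from 43.2 ± 4.48 to 62.2 ± 8.03 CPM in the DA (log2 difference 0.53, edgeR adjusted p = 1.43e-04) and from 44.0 ± 4.52 to 64.9 ± 3.21 CPM in the aorta (0.56, edgeR adjusted p = 2.30e-04). Ngfr, the p75 neurotrophin receptor, rose in the DA from 6.42 ± 3.85 to 17.4 ± 3.72 CPM (1.43, edgeR adjusted p = 0.00554). The nearest tested neighbours of that pair, Itga3 and Kat7, were not called in either vessel.

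**Figure D5:**
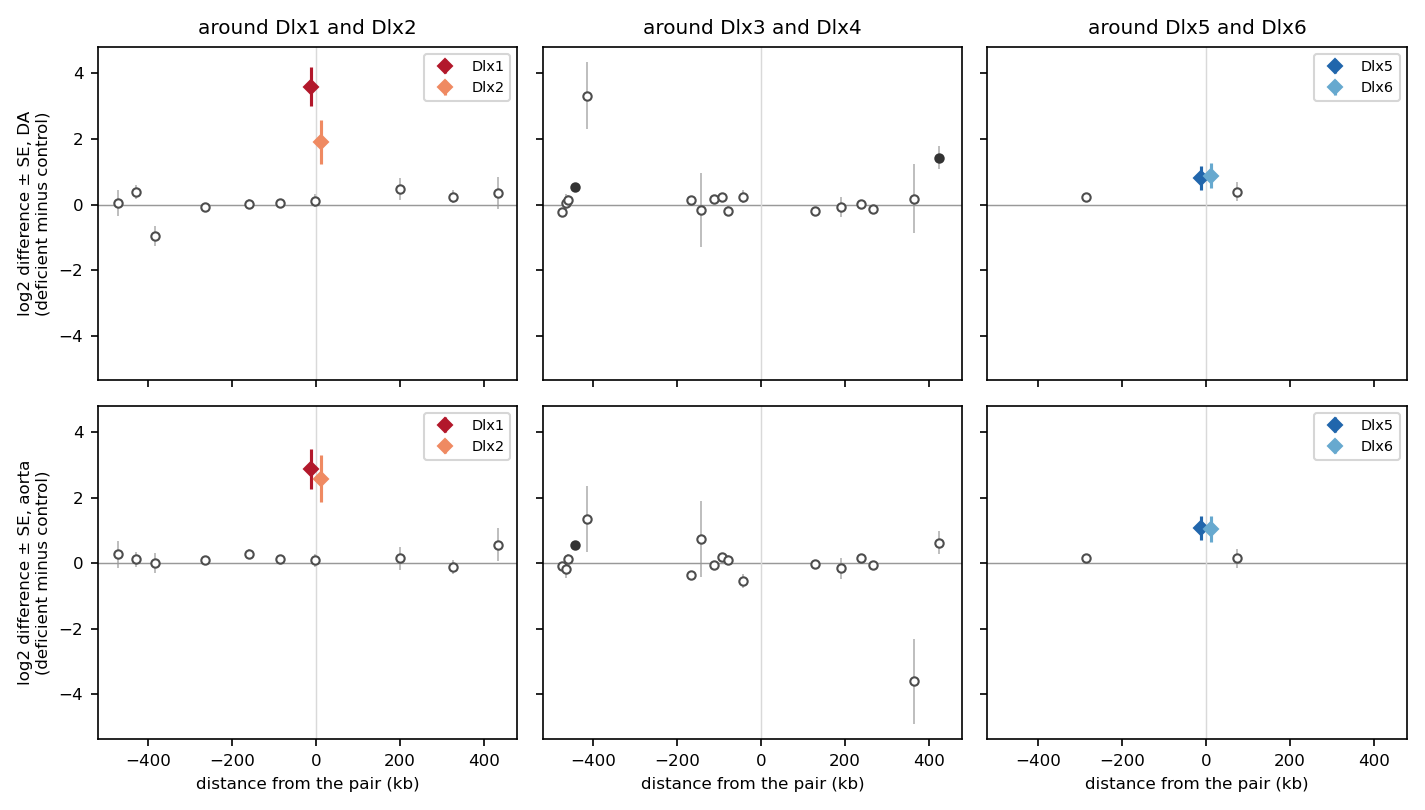
Log2 difference (deficient minus control, ± SE) on the y axis against distance in kb from each linked pair on the x axis, for every tested gene within 500 kb, in the DA (top) and the aorta (bottom). Diamonds are the members, set side by side near 0, and filled circles were called. The circles around Dlx1 and Dlx2 lie between -0.95 and 0.57 and are all open.

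Of 29 genes of arch patterning, from the endothelin pathway to arch transcription factors, 25 were tested. In the DA 6 were called higher and 4 lower, where 2.61% and 2.82% of all genes tested were, with a median log2 difference of 0.23, against 0.01 over all genes tested. In the aorta 4 were called higher and 0 lower, where 1.63% and 0.826% of all genes were, with a median of 0.47, against -0.00 over all genes. Upstream, Edn1, the endothelin-1 ligand, fell from 69.2 ± 17.3 to 31.4 ± 5.86 CPM in the DA (log2 difference -1.14, edgeR adjusted p = 3.75e-05), and was at 34.6 ± 9.57 and 53.8 ± 4.88 CPM in the aorta (0.64, edgeR adjusted p = 0.0286), which was not called.

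Hand2, which acts downstream of Dlx5 and Dlx6 in the arch, rose in the DA from 12.0 ± 6.05 to 31.1 ± 8.74 CPM (log2 difference 1.37, edgeR adjusted p = 4.65e-04). In the aorta it was at 41.9 ± 10.4 and 55.8 ± 11.9 CPM and was not called. Barx1, a homeobox gene of the arches and jaw, rose from 1.46 ± 1.04 to 9.43 ± 5.83 CPM in the DA (2.69, edgeR adjusted p = 0.00537) and from 0.737 ± 0.575 to 8.02 ± 3.32 CPM in the aorta (3.43, edgeR adjusted p = 0.00264). Tbx2, a T-box repressor, rose by 1.998 in the DA (edgeR adjusted p = 2.57e-06) and by 1.85 in the aorta (edgeR adjusted p = 3.05e-05).

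Prrx2, a homeobox gene of arch mesenchyme, fell in the DA by 1.21 on the log2 scale (edgeR adjusted p = 3.50e-05). Jag1, a Notch ligand, rose there by 0.93 (edgeR adjusted p = 1.77e-06). Of the genes that make or receive the endothelin signal, Ednra, the endothelin A receptor, rose in the DA by 0.66 (edgeR adjusted p = 0.00107), and Ece1, the enzyme that activates endothelin, fell by 0.57 on the log2 scale (edgeR adjusted p = 0.0028). Of those that carry it inside the cell, Gnaq fell in the DA from 107.3 ± 12.3 to 74.6 ± 14.7 CPM (log2 difference -0.52, edgeR adjusted p = 0.00247), and Gna11 and Plcb3 were not called in either vessel.

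Of 22 forebrain interneuron genes that act with or after Dlx1 and Dlx2, 11 passed the filter and were tested. In the DA 1 was called higher and 1 lower, where 2.61% and 2.82% of all genes tested were. The median log2 difference there was 0.63, against 0.01 over all genes. In the aorta 1 was called higher, where 1.63% of all genes were, with a median of -0.19, against -0.001 over all genes. Zeb2, a zinc-finger repressor with many roles in neural crest, rose in the DA from 52.3 ± 9.21 to 81.2 ± 9.83 CPM (edgeR adjusted p = 3.28e-04) and in the aorta from 68.5 ± 11.5 to 99.0 ± 7.47 CPM (edgeR adjusted p = 0.00615). Cxcr4, a chemokine receptor of migrating cells, fell in the DA from 7.71 ± 3.18 to 2.05 ± 1.35 CPM (edgeR adjusted p = 0.0022). Gad1, an enzyme of GABA synthesis, was at 0.623 ± 0.363 and 1.98 ± 0.694 CPM in control and deficient DA and at 0.463 ± 0.348 and 1.70 ± 0.503 CPM in the aorta, and was not called (edgeR adjusted p = 0.0725 and 0.101). Gad2 stayed below 0.5 CPM in the mean of each group, with an edgeR adjusted p of 0.694 in the DA and 0.985 in the aorta.

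Osteoblast genes linked to Dlx3, Dlx5 and Dlx6 gave 9 tested of 14. None was called in the DA by edgeR, where 2.61% of all genes tested were called higher and 2.82% lower. There 2 had an unadjusted p below 0.05, DESeq2 called 1 (Col10a1) and the median was 0.25. In the aorta the median was 1.10 and, where 1.63% of all genes were called higher, 1 list gene was. This was Bmp4, a growth factor that induces Dlx genes, which rose from 103.2 ± 17.2 to 274.8 ± 26.4 CPM (log2 difference 1.41, edgeR adjusted p = 8.83e-08), and in the DA was at 153.7 ± 40.0 and 203.9 ± 17.99 CPM (0.41, edgeR adjusted p = 0.0414). Of 10 proteins known to bind DLX factors, all tested, 1 was called lower in the DA and 0 in the aorta by edgeR. Of all genes tested, 2.82% and 0.826% were called lower in these vessels. The medians were -0.16 and 0.10. In the aorta 4 had an unadjusted p below 0.05, and DESeq2 called 1, Msx1. Msx1, a homeobox repressor that can pair with DLX proteins, was at 3.36 ± 1.68 and 7.12 ± 3.204 CPM in the DA and at 6.10 ± 1.24 and 17.5 ± 3.36 CPM in the aorta, and was not called by edgeR (adjusted p = 0.122 and 0.0510).

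Markers of other cells that the vessels could hold were set beside these values. For their calls, the shares over all genes tested were 2.61% higher and 2.82% lower in the DA, and 1.63% and 0.826% in the aorta. The 11 neuron markers, 6 of them tested, summed to 8.40 to 29.9 CPM in control DA and 20.9 to 50.3 CPM in Prdm6-deficient DA, and to 21.5 to 38.9 CPM in control aorta and 43.1 to 87.4 CPM in Prdm6-deficient aorta. One of them was called higher in each vessel, Elavl4, an RNA-binding protein, and the others, among them Tubb3 at group means of 1.31 to 1.39 CPM, were not called. Without Elavl4 the neuron markers summed to 16.6 to 33.3 CPM in control aorta and 17.0 to 34.2 CPM in Prdm6-deficient aorta, and to 6.90 to 29.5 CPM and 17.3 to 41.1 CPM in control and Prdm6-deficient DA. Their part in the Dlx values was not tested.

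The 7 cartilage and bone markers, 5 of them tested, summed to 78.0 to 187.1 CPM in control DA and 227.3 to 300.3 CPM in Prdm6-deficient DA, where Acan rose and Sox9 fell, and to 242.4 to 358.4 CPM and 180.8 to 340.0 CPM in control and Prdm6-deficient aorta, where Sox9 fell. Of these genes, Matn1 and Ibsp were at or under 3 counts in every library. Runx2 and Sp7, transcription factors of osteoblasts, had means of 0.238 and 0.501 CPM in control aorta and 1.73 and 2.88 CPM in Prdm6-deficient aorta, and were not called (edgeR adjusted p = 0.364 and 0.290). The part of these markers in the Dlx values was not tested. The 8 melanocyte markers summed to 45.9 to 242.2 CPM in control DA and 4.08 to 13.2 CPM in Prdm6-deficient DA, and 4 were called lower. The 8 smooth muscle markers gave 7 called lower in the DA. In the aorta 0 were called lower and 1 higher, Mylk (log2 difference 0.65, edgeR adjusted p = 0.00759). Mylk was among those called lower in the DA (-0.99). The 8 Schwann cell and glia markers summed to 20.7 to 182.8 CPM in control DA and 70.6 to 145.8 CPM in Prdm6-deficient DA, where Fabp7 was called higher, and to 12.4 to 38.4 CPM and 19.0 to 85.2 CPM in the aorta groups, with median log2 differences of 1.25 and 0.98 in the DA and the aorta. Of 6 fibroblast markers, Lum was called higher in both vessels (1.44 and 1.61) and Col3a1 in the DA (0.73). In the aorta Dpt was lower (-1.01, edgeR adjusted p = 0.0151) but not called. The median log2 difference of the fibroblast markers was 0.51 in the DA and -0.22 in the aorta. Of 8 endothelial markers, 3 were called higher in the aorta (Tek, Tie1 and Emcn). Their part was not tested either.

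How closely members followed each other over libraries is described with no test, since embryos gave 1 or both vessels and libraries of a group share their genotype. Over 23 libraries, the log2 CPM of Dlx5 and Dlx6 had a Pearson r of 0.76, which placed Dlx6 at rank 37 of the 14141 genes compared with Dlx5. After each group's mean was subtracted, r was 0.63 for this pair. For Dlx1 and Dlx2 the r was 0.49, at rank 1208 of the genes compared with Dlx1, and after the group means were subtracted it was -0.31. This value includes control DA libraries at or under the floor of 3 counts, among them replicate 3, with 0 counts of Dlx2, and replicate 5, with 1 count of Dlx1 and the most Dlx2 of its group. No comparison between the pairs is drawn from it.

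By the same measure, the genes most like Dlx1 over all libraries were Pdgfrb (r = 0.90), the PDGF receptor of mural cells, Gdf10 (0.89) and Frzb (0.88), a secreted Wnt antagonist, followed by Pter and Pam. The genes most like Dlx2 were Nxph1 (0.83), a neurexin ligand, Vstm5, Plscr1, Gm6206 and Sppl2b. Those most like Dlx5 were Scube2 (0.88), Msx1 (0.88), Gdpd2, Fmn1 and Rnf180, and those most like Dlx6 were Plxnb2 (0.85), Tro, Elmo2, Epha3 and Vill. After group means were subtracted, the closest gene was Khdrbs1 (0.85) for Dlx1, Pam16 (0.86) for Dlx2, Cyb5d2 (0.87) for Dlx5 and Gm14005 (0.82) for Dlx6.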

How the data were processed

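Low-input, paired-end RNA-Seq was made from microdissected vessels. The authors filtered and trimmed reads, aligned them to mm10 with STAR, and deposited the RSEM output as a table of expected counts, without scaling to depth or gene length. They name GENCODE version 20, and versions of STAR and RSEM are not given in the sources used here. RSEM divides reads that fit several genes, and use of strand is not stated.

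Columns were matched to samples by name, and groups came from the labels, by which replicates are separate embryos or pools. Replicate 4 of the Prdm6-deficient DA group was not analysed here. Names and mm10 positions were taken from GENCODE M21, which held 54723 of 54752 identifiers without version. Expected counts were rounded and tested with edgeR 4.0.16 in R 4.3.3 (filterByExpr, TMM, 1 mean per group over all 23 libraries, quasi-likelihood test), with Benjamini-Hochberg adjustment over 16463 genes. A gene was called at an adjusted p below 0.01 and a log2 difference beyond 0.5. SE is the size of the log2 difference divided by the root of F. CPM were scaled by TMM, and values after ± are SDs. On simulated data with 200 changed genes in the DA comparison (15918 genes tested), edgeR recovered 46% of genes changed 2-fold and 71% of those changed 4-fold, with 1 false call. The changed genes were drawn at random over all levels, so these rates do not give the power for the Dlx genes.

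The members, gene lists (arch patterning, interneuron, osteoblast, DLX partners) and marker lists were chosen with earlier results of these data known. Named are the members, Dlx-named antisense transcripts, called and nearest neighbours within 500 kb, called list genes (at most 6 per list by size, plus up to 2 not called), the closest genes by Pearson r among genes averaging 0 or more in log2 CPM, and Prdm6. Values of some called list genes are not reported here. Elavl4, Tubb3, Acan, Sox9, Matn1, Ibsp, Col10a1, Cybrd1, Gnaq, Ece1, Ednra, Runx2, Sp7, Fabp7, Lum, Col3a1, Dpt, Tek, Tie1, Emcn and Mylk were named after their values were seen. Alternatives were DESeq2 1.42.0, RLE size factors, no filter, covariates or blocks, subsets of libraries and leaving out each library. The replicate numbers did not mark embryos throughout. Control DA and control aorta replicates 1 came from 1 embryo, while control DA replicate 2 shared its embryo with control aorta replicate 3. Over 19 pairs of libraries with the same number, the correlation of deviations from group means was -0.06 to 0.11, and over 0.1 in 1. It was 0.01 for the replicates 1 of the control vessels, so it cannot show whether libraries were paired. In 56 pairs of libraries within groups, none matched within sampling noise.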

Additional observations from a re-analysis of the deposited data

Results flagged for a closer look

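Dixon's criterion was applied to 6 genes in each of the 4 groups of libraries, 24 sets of values in all. By it, 4 values lay far from the others of their set. Chance meets it in about 1 in 20 sets only where values are normally distributed, which counts near the floor with many zeros are not. A set with 1 value above 0 is always flagged, so the number flagged is not read as an excess. Dlx2 was at 7.24 CPM in control DA replicate 5, and the next control DA library was at 1.67 CPM. Dlx3 was at 1.07 CPM in control DA replicate 4, with the next at 0.186 CPM. Dlx3 was at 0.0575 CPM, 1 count, in Prdm6-deficient DA replicate 6, where the other 4 libraries were at 0. Dlx6os1 was at 0 CPM in control DA replicate 4, and the next lowest was at 1.56 CPM. The value of Dlx2 bears on its comparison between DA groups, which was called without that library (log2 difference 3.04, edgeR adjusted p = 9.92e-04).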

How the results depend on the processing

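Dlx1 differed in the same direction under every alternative run in both genotype comparisons, at 3.36 to 4.39 in the DA and 2.53 to 3.17 in the aorta on the log2 scale. Dlx1 was chosen for its rise in these comparisons, so the shared direction is a description with no test. The number of members other than Dlx1 called higher in the DA was 0, and 0 to 1 when single libraries were left out (1 without control DA replicate 5). In the aorta it was 0, with 1 by DESeq2, 2 with the aorta libraries alone and 0 to 1 when single libraries were left out (1 without control DA replicate 3, by Dlx2 at edgeR adjusted p = 0.00895, and without replicate 5). Between control vessels, with Dlx1 counted, 0 members were called, and 0 to 1 when single libraries were left out (1, Dlx1, without control DA replicate 7). The causes were not tested.

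Directions of differences that were not called turned in some settings. Dlx2 between control vessels was -0.26 with the replicate block and -0.60 without control DA replicate 5, in a range of -0.60 to 0.75 when single libraries were left out. Dlx2 between deficient vessels was 0.25 without the pooled libraries, 0.15 without Prdm6-deficient DA replicate 2 and 0.044 without Prdm6-deficient aorta replicate 3, in a range of -0.52 to 0.15. The interaction turned to 0.47 for Dlx2 without control DA replicate 5 (range -1.05 to 0.47), to 0.10 for Dlx5 with the replicate block, and for Dlx6 to 0.042 without the pooled libraries, 0.0052 without control DA replicate 3 and 0.085 without Prdm6-deficient DA replicate 7 (range -0.69 to 0.085). Dlx6 in the DA was -0.073 within the second run. Dlx6os1 between control vessels lost its call with the replicate block (edgeR adjusted p = 0.0247), with the animal as a block (0.109), in the second run (0.0412), with controls alone (0.0361) and without the control with Cre (0.0105), and in 6 of the settings that leave out a library, at -1.76 to -1.65.

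With the replicate number as a block, Dlx1 differences were 4.39 in the DA and -2.11 between control vessels (edgeR adjusted p = 0.0223). No member moved across the threshold. In the genotype comparisons this block joins libraries of different embryos, so it is not a paired analysis. 3 of the 19 pairs correlated best with their own number. Leaving out the embryo of Prdm6-deficient DA replicate 5 and aorta replicate 3 was chosen after seeing the data, and changed no call of a member. Over all genes, calls in the DA were 894, and 201 and 419 within the first and second run. In the aorta they were 404, with 702 from aorta libraries alone and 226 in the second run. Between deficient vessels they were 44, with 134 by DESeq2, 16 with the replicate block, 83 with deficient libraries alone, 15 without the pools, and 22 to 58 when single libraries were left out. Depth limits Dlx3 and Dlx4, which lay near the floor of 3 counts.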
